A study of Mus musculus with 3 samples.

Results

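Immature non-cycling neutrophils of the bone marrow were 348 of the 1840 bone marrow cells that passed the filter on cells (18.9%, Clopper-Pearson 95% interval 17.1% to 20.8%) and 348 of 9725 barcodes in the 3 libraries. They were chosen cell by cell from measured values. UMIs are unique molecular identifiers, 1 for each captured transcript. Mitochondrial transcripts could make up no more than 20% of a cell's UMIs, 200 or more genes had to be detected, and *S100a8* and *S100a9* had to make up at least 5% of its UMIs. The specific granule genes *Camp*, *Ngp*, *Ltf*, and *Lcn2* had to make up at least 1%. The proliferation genes *Mki67* and *Top2a* could sum to at most 2 UMIs, and *Cxcr2* had to be below 5 UMIs per 10000. The azurophil granule genes *Elane*, *Mpo*, *Prtn3*, and *Ctsg* had to stay below 1% of UMIs, and *Csf1r* at 0 or 1 UMI. Levels of these genes are therefore given as a description of the choice and not as findings.

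The cells came from unsorted bone marrow of male C57BL/6J mice aged 10 weeks, taken 3 days after a dorsal burn combined with full transection of the Achilles tendon (burn/tenotomy). All 3 libraries came from injured mice, and no uninjured marrow was analysed here. There was 1 library each from bone marrow flushed from femurs and freed of red cells, from blood mononucleated cells of a density gradient, and from the enzymatically digested tendon injury site. How many mice went into a library was not stated in the labels or methods, and differences of site, of preparation, and of library cannot be told apart. The bone marrow library held 49580625 UMIs in 1855 cells. It shared 2 cell barcodes with the blood library and 1 with the tendon library, and none of these belonged to a cell of the set. With 1 library per site no test was made, and intervals cover counting error only.

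Neutrophils are made in the marrow in a fixed order of granules. Promyelocytes load azurophil granules with proteases and myeloperoxidase, the next stages load specific granules with proteins such as lactoferrin and cathelicidin while division comes to an end, and band and segmented cells load gelatinase granules and take up the receptors used in blood and tissue. The immature non-cycling cells are set between cells that still divide and cells that carry the *Cxcr2* chemokine receptor, which draws neutrophils out of the marrow. They were therefore described against 2 classes of the same library. Cycling pre-neutrophils (320 cells) had more than 2 *Mki67* and *Top2a* UMIs, and 319 of them failed no other criterion. Mature neutrophils (396 cells) had *Cxcr2* at 5 or more per 10000 with no lower limit on the granule genes, and 269 of them failed the *Cxcr2* criterion alone. Lower granule transcripts in mature cells therefore follow in part from how that class was set. A further class, azurophil-high cells (182 cells), were at or above 1% for the azurophil genes.

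The median cell of the set held 22659 UMIs and 2702.5 detected genes, and the lowest and highest held 1025 and 49373 UMIs. Cycling cells held a median of 37022.5 UMIs and mature cells one of 14411.5. At an equal 2000 UMIs per cell, the median number of detected genes was 560 in the immature cells, 678 in cycling cells, and 595 in mature cells, with 2, 0, and 5 shallower cells left out. *S100a8* and *S100a9* took a median of 42.1% of the UMIs of an immature cell and the 4 granule genes 10.7%, with a range from 1.44% to 31.5%. No *Mki67* or *Top2a* UMI was found in 285 of the cells, while 45 held 1 and 18 held 2. Mitochondrial UMIs had a median of 0.757%, and 5 cells held fewer than 5000 UMIs or more than 5% mitochondrial UMIs.

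The borders of the set were of unlike sharpness. Only 4 cells failed the S100 criterion alone, 4 the granule criterion, 1 the azurophil criterion, and 2 the *Csf1r* criterion, whereas 319 failed the proliferation criterion alone and 269 the *Cxcr2* criterion alone. For S100, the nearest cell inside held 7.39% and the nearest outside 4.93%, and for the granule genes these were 1.44% and 0.593%. For *Cxcr2* there was no gap, with 4.98 inside and 5.0008 outside. The 55 cells just inside that border, at 4 to 5 per 10000, held 27413 CPM (UMIs scaled to 1000000 over a group of cells) of *Camp* and 12122 CPM of *Retnlg*, and the 41 cells just outside, at 5 to 6, held 22731 and 16256 CPM. The 72 cells at 0 to 1 per 10000 held 45311 CPM of *Camp* and 1351 CPM of *Retnlg*. The upper border of the set thus lay within a continuous spread of cells. For *Mki67* and *Top2a* there was no gap either, since the 10 nearest cells inside held 2 UMIs and the 10 nearest outside 3. That border is a count of UMIs and not a share, while median depth was 22659 UMIs in the immature and 37022.5 in cycling cells.

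**Figure D1:**
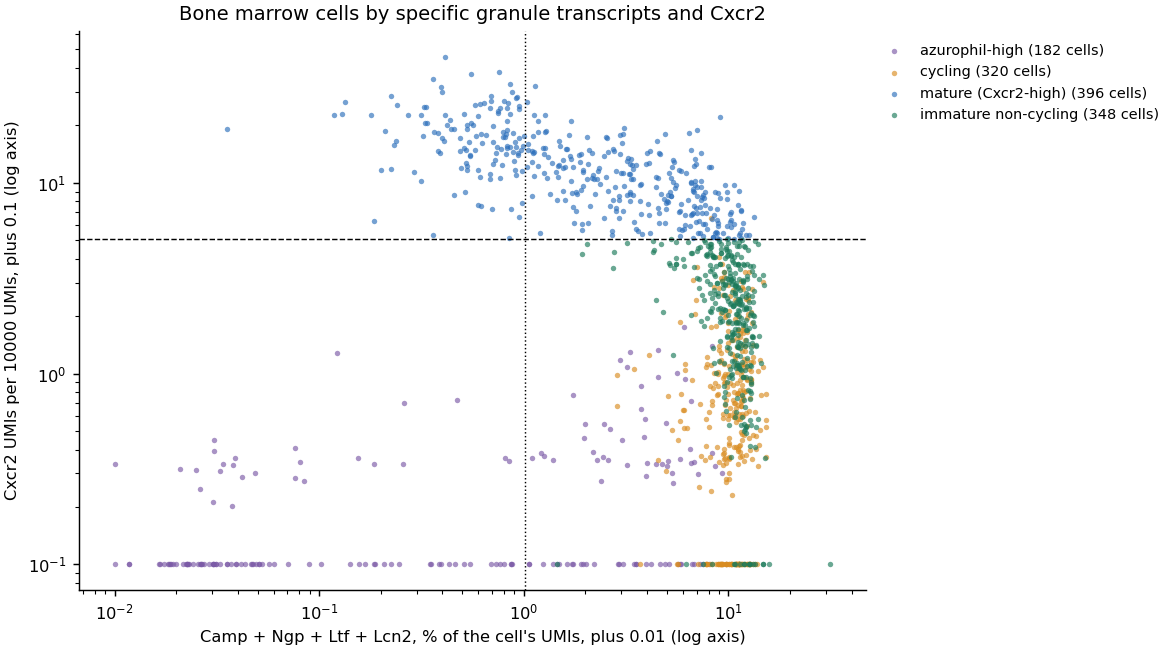
Each point is a bone marrow cell, placed by the share of its UMIs from *Camp*, *Ngp*, *Ltf*, and *Lcn2* (percent, log axis) and by its *Cxcr2* UMIs per 10000 (log axis, both with a small constant added so that 0 can be drawn), with dashed and dotted lines at the thresholds of 5 per 10000 and 1%. The 348 immature cells adjoin the 396 mature cells across the *Cxcr2* line with no gap, and they overlap the 320 cycling cells, from which *Mki67* and *Top2a* separate them.

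The marker genes that go with the label were *Ltf*, *Ngp*, *Ly6g*, *Ifitm6*, and *Ceacam10*, of which the first 2 took part in the choice. *Ly6g*, a surface protein that marks mouse neutrophils, had a median of 9.45 UMIs per 10000 over the immature cells (0 to 37.5, at 0 in 4 cells), against 1.52 in cycling and 9.14 in mature cells. *Ifitm6*, an interferon-induced transmembrane family member, had a median of 51.4 (0 to 135, at 0 in 1 cell), against 13.2 and 38.5. *Ceacam10*, a carcinoembryonic antigen family member, had a median of 1.27 (0 to 9.92, at 0 in 64 cells), against 0.214 and 1.90. The ranges of the 3 classes overlapped for all 3 genes. In summed UMIs, all 3 were more than 2-fold above cycling cells and less than 2-fold away from mature cells. The sums thus set the class apart from cycling cells and not from mature cells, while single cells overlapped. All 14 neutrophil markers on the list were detected. Without the 6 that the rule used, 6 of 8 were at least 2-fold above cycling cells, and 4 of 8 at least 2-fold below mature cells. Over all genes compared, 5.33% were above cycling cells and 9.23% below mature cells by that much.

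Apart from *Ly6c2* of the monocyte list, at 1085 CPM, each marker of other cells was at 33.55 CPM (*Ear2*) or less. Of the 9 B-cell markers found in the files, 5 were at 0 in all 348 cells, and the list summed to 1.88 CPM. *Cd3e*, *Cd3g*, and *Cd8a* were at 0, and the 20.4 CPM of the T- and NK-cell list were led by *Cd3d*, with 93 UMIs in 72 cells. *Epx*, *Prg3*, and *Ear6* of the eosinophil list were at 0, while *Ear2* gave 267 of its 291 UMIs. The erythroid, dendritic, megakaryocyte, and stromal and endothelial lists were at 4.52, 5.65, 3.90, and 3.90 CPM, led by *Hbb-bs*, *Bst2*, *Gp1bb*, and *Pecam1*. Of the 12 monocyte markers, *Ly6c2* gave 8637 UMIs in 347 cells and the other 11 gave 80 UMIs, 30 of them *Cx3cr1* in 1 cell. The basophil and mast cell list held 43 UMIs, of which 37 lay in 1 cell that also held all 21 *Cpa3* UMIs of the set. The stem and progenitor list was at 10.9 CPM, led by *Hlf* with 40 UMIs in 31 cells.

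Specific granule genes were the base of the choice and are described first. *Camp*, the cathelicidin, was at 10793 CPM in azurophil-high, 43728 in cycling, 37508 in immature, and 10660 in mature cells. *Ngp*, the neutrophilic granule protein, was at 4617, 36471, 36897, and 15046 CPM in the same order. *Ltf*, lactoferrin, was at 164, 6941, 11114, and 4625 CPM, and *Lcn2*, the siderophore-binding lipocalin, at 1806, 15309, 19379, and 11785 CPM. The order of cycling and immature cells in *Camp* depends on the scaling, since its log2 ratio was −0.22 and every such ratio is 0.23 higher with the genes of the rule left out of the totals. *Ltf* and *Lcn2* were higher in the immature than in cycling cells under both scalings. Those that lie on chromosome 9, *Camp*, *Ngp*, and *Ltf*, are at separate places there.

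The bases just before the starts of granule genes are shown because these genes are abundant together in the immature cells and because *Cebpe*, the C/EBP family factor that neutrophils need to make specific granules, differed between the classes. The windows are from RefSeq (GRCm38.p6), 5′ to 3′ on the strand of the gene, and end where the first exon of GENCODE M21 begins or, for *Mmp8*, at the start of the gene. They were cut from the 250 bases before the RefSeq start, and matches of the letters TTGCNNAA on either strand, a pattern of C/EBP sites, are in capitals. *Camp* is on the minus strand at chr9:109849618-109849706, *Ngp* on the plus strand at chr9:110419558-110419746, *Ltf* on the plus strand at chr9:111019042-111019270, *Fcnb* on the minus strand at chr2:28084886-28085128, and *Mmp8* on the plus strand at chr9:7558179-7558428. *Fcnb* and *Mmp8*, ficolin B and neutrophil collagenase, are shown as the genes that marked the 2 ends of the set.
Camp: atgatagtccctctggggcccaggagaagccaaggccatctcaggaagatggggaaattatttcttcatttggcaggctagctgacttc
Ngp: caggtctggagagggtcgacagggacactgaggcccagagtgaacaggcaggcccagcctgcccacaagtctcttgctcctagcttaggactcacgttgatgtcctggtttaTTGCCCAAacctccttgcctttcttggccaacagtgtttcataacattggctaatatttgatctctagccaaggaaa
Ltf: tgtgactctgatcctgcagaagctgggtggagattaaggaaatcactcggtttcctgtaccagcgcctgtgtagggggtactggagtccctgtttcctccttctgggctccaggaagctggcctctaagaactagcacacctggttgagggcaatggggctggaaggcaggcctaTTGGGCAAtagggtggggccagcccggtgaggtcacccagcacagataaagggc
Fcnb: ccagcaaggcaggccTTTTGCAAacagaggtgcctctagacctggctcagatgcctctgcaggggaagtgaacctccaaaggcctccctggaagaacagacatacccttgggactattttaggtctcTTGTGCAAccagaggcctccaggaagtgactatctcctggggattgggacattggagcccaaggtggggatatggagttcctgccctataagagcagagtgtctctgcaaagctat
Mmp8: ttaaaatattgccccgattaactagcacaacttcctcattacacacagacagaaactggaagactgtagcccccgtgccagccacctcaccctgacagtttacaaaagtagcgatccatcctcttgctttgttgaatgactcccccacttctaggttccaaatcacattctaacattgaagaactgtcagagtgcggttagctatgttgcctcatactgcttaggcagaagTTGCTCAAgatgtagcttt
The letters occurred in 9.56% of all 32851 windows of 250 bases and in 7.99% of the 5307 windows of genes compared with mature cells. Of the 10 granule and marker genes examined, which were picked with their levels in view, 7 held a match in 250 bases, and *Camp*, *Ifitm6*, and *Ceacam10* held none. The 250 bases of *Lcn2* lie within its annotated exons and are not shown. A match describes letters and is not a site at which binding was measured.

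**Figure D2:**
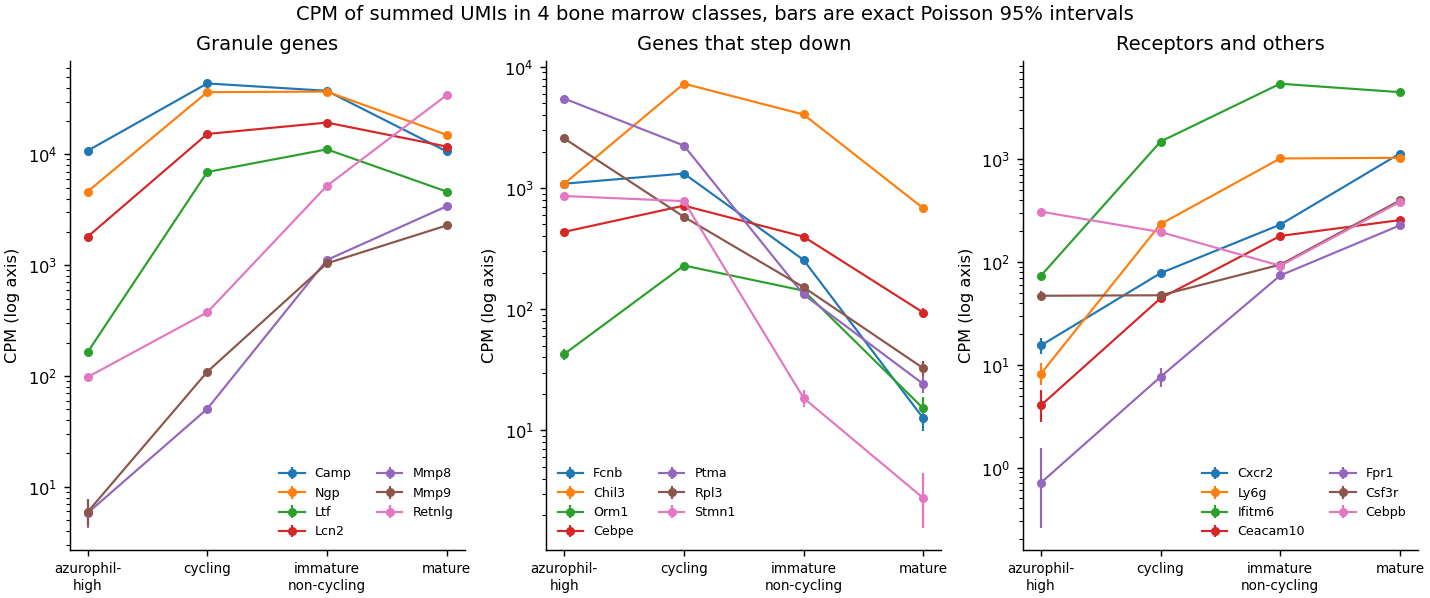
CPM of summed UMIs (log axis) in 182 azurophil-high, 320 cycling, 348 immature non-cycling, and 396 mature bone marrow cells, with exact Poisson 95% intervals that mostly lie within the points. *Mmp8*, *Mmp9*, and *Retnlg* are higher in the immature than in cycling cells and higher again in mature cells, *Fcnb*, *Ptma*, and *Rpl3* are lower at each of these steps, and *Cebpb* has its lowest value in the immature cells.

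Against cycling cells, the immature cells held fewer transcripts of cell-cycle genes. At least 2-fold higher were 6 of 8 gelatinase granule genes and 12 of 32 receptor genes of mature neutrophils, with none lower. Of 6797 genes with at least 100 UMIs over both classes, 362 (5.33%) were at least 2-fold higher in the immature cells and 1716 (25.2%) at least 2-fold lower, each with an interval off 0. The median log2 ratio was −0.33. A few genes of the rule hold a large part of all UMIs, so the totals were also taken without them. Each log2 ratio was then 0.23 higher, with 548 genes higher and 1379 lower, and the share of higher genes among those past 2-fold was 28.4% in place of 17.4%.

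All 26 genes of the S-phase list that were compared and all 27 of the G2M list were at least 2-fold lower, as were all 19 genes of chromatin and cytoskeleton that dividing cells make. Since low *Mki67* and *Top2a* chose the cells, these counts describe the choice. *Kif11*, a spindle motor, had 1 UMI in the immature and 2021 in the cycling cells. *Rrm2*, a ribonucleotide reductase subunit, had 2 and 2561, and *Nusap1*, a spindle protein, had 5 and 3899. *Stmn1*, which destabilizes microtubules, was at 18.5 and 780 CPM, and *Ptma*, prothymosin alpha, at 132 and 2240 CPM. *Cdkn2c*, a cyclin-dependent kinase inhibitor, was also lower (1.13 and 60.3 CPM), while *Mxd1*, a Max dimerization partner that opposes Myc, was higher at 416 and 155 CPM.

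*Mmp8*, neutrophil collagenase, was among the 10 genes with the largest ratios above cycling cells. It had a median of 5.75 UMIs per 10000 over the immature cells (0 to 59.7, at 0 in 95 cells) and a median of 0 in cycling cells (0 to 13.6). It summed to 1116 CPM against 50.5 CPM, a log2 ratio of 4.46 (4.34 to 4.59), which was 3.31 with the border at *Cxcr2* below 2.5 per 10000. *Mmp9*, gelatinase B, which is not among the 10, had a median of 10.9 (0 to 51.2) against 0 (0 to 16.6), and 1040 against 109 CPM. *Retnlg*, a resistin-like secreted protein of neutrophils, was at 5208 against 375 CPM (log2 ratio 3.79, and 2.46 with that border). The classes overlapped in each of these genes. Further genes of this group were *Ggt1*, a gamma-glutamyltransferase, with 99 against 6 UMIs, *Prok2*, a prokineticin, with 237 against 16, *Slc15a3*, a lysosomal peptide transporter, with 118 against 8 (log2 ratio 4.45, and 5.77 with the cells of highest doublet score left out), and *Fpr1*, a receptor for formylated peptides, with 588 against 90. *Bst1*, *Acvrl1*, *Gpr27*, and *Ankrd33b* completed the 10, with log2 ratios from 3.36 to 3.74. With the border at *Cxcr2* below 2.5 per 10000, 5 of the 10 kept 100 UMIs over both classes, and their log2 ratios lay between 2.41 (*Bst1*) and 3.31 (*Mmp8*).

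Against mature cells, 26 of 83 ribosomal protein genes were at least 2-fold higher in the immature cells and 1 was lower. Of the secretory genes, 14 of 33 were higher, and 45 of the 49 maturation genes compared were lower. Of 5190 genes compared, 352 (6.78%) were at least 2-fold higher and 479 (9.23%) at least 2-fold lower, and the median log2 ratio was −0.06. With the genes of the rule left out of the totals, each log2 ratio was 0.26 higher, 614 genes were higher and 325 lower, and the share of higher genes turned from 42.4% to 65.4%. With these totals centred on the median 412 were higher and 432 lower (48.8%), and at 20 UMIs in place of 100 the counts were 879 and 707. Which direction holds more genes on this side therefore depends on the scaling and on the filter on low genes.

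*Fcnb*, ficolin B, a soluble lectin of immature neutrophils, had the largest ratio above mature cells. It was at 255 CPM in the immature, 12.6 CPM in the mature, and 1316 CPM in the cycling cells, a log2 ratio to mature cells of 4.34 (4.003 to 4.697). With the border at *Cxcr2* below 2.5 per 10000 it was 2.91, and the log2 ratios of the 10 genes named here lay between 1.60 and 3.64. Its UMIs lay in 53.4% of the immature cells, with a median of 0.398 per 10000 and a highest value of 30.5. *Ms4a3*, a tetraspan protein of granulocyte and monocyte progenitors, was at 27.8 and 1.55 CPM, *Orm1*, an acute-phase lipocalin, at 142 and 15.2 CPM, and *Lman1*, a cargo receptor of the endoplasmic reticulum, at 13.9 and 1.21 CPM. *Akap11*, *Anp32e*, *Tmem216*, *Mrpl15*, *Ica1*, and *RP24-484I1.3* completed the 10, with log2 ratios from 3.12 to 4.04. *Chil3*, a chitinase-like protein, was at 4044 and 681 CPM (log2 ratio 2.57, and 1.82 with that border).

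In the other direction, *Il1b*, which encodes the cytokine IL-1β, had 3 UMIs in the immature and 310 in the mature cells. *Steap4*, a metalloreductase, had 0 and 140 UMIs, so it was at least 64-fold lower against a floor of 3 counts over the class, and at 0 its upper limit was 0.377 CPM. *Ccl6*, a chemokine, was at 12.3 and 502 CPM (log2 ratio −5.35, −5.66 to −5.06). *Cd244*, *Sirpb1b*, *Gm5150*, *St3gal6*, *Tspan13*, *St8sia4*, and *Il13ra1* each had fewer than 20 UMIs in the immature cells, with log2 ratios from −6.13 to −4.93. With the border at *Cxcr2* below 2.5 per 10000, the 8 of these 10 genes that gave a ratio lay between −6.90 and −4.32. *Irg1*, the symbol used in the files for *Acod1*, which encodes the enzyme that makes itaconate, had 7 UMIs in 348 immature cells and 96 in 396 mature cells.

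**Figure D3:**
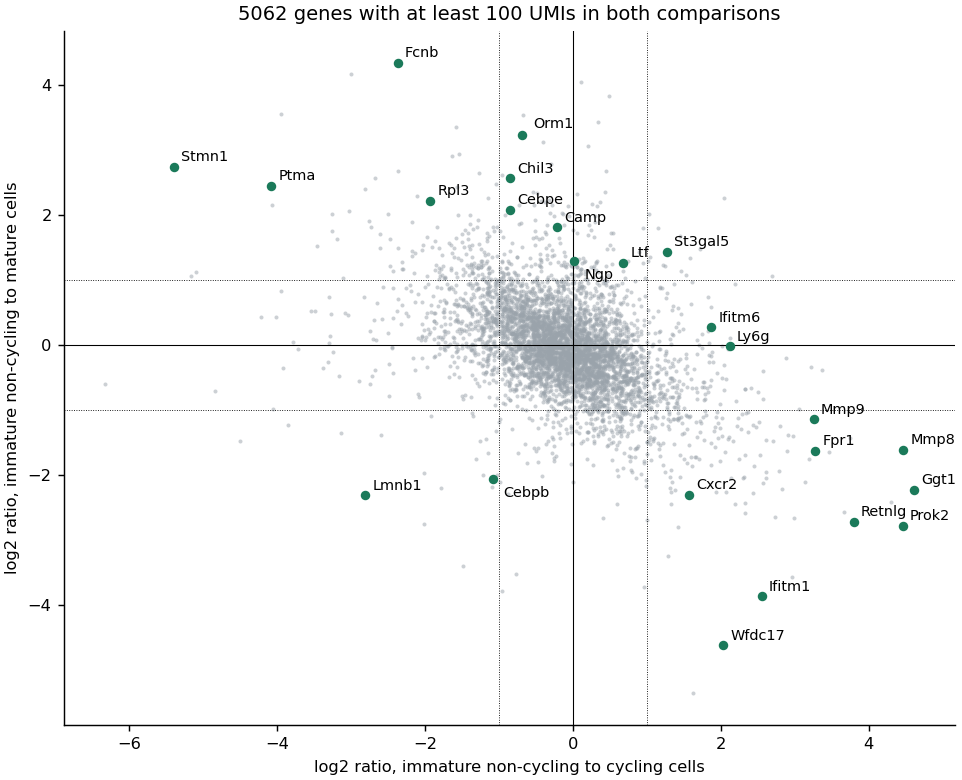
Each point is 1 of 5062 genes, placed by its log2 ratio of immature to cycling cells (x axis) and of immature to mature cells (y axis), with dotted lines at 2-fold and named genes in green. Both axes use the counts of the same immature cells, so no relation between them is read. *Mmp8* and *Retnlg* lie at the lower right, *Fcnb* and *Stmn1* at the upper left, and *Cebpb* and *Lmnb1* at the lower left.

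Of the 5062 genes compared with both classes, 151 were at least 2-fold above cycling and 2-fold below mature cells, and 149 were the reverse. Only 14 were at least 2-fold above both classes and 21 at least 2-fold below both. These counts hold for totals over all genes and were not repeated under the other scalings. With the genes of the rule left out, log2 ratios are 0.23 higher to cycling and 0.26 higher to mature cells. Some of the 21 lie closer to 2-fold than that and would fall short of it, while genes above both would stay so. *Cebpb*, a C/EBP factor of mature and activated myeloid cells, was among the latter, at 195 CPM in cycling, 91.8 CPM in immature, and 384 CPM in mature cells. Its log2 ratio to cycling cells was −1.09. With the genes of the rule left out of the totals and these centred on the median it was −0.76, which is short of 2-fold. *Lmnb1*, lamin B1 of the nuclear envelope, was at 184, 26.3, and 130 CPM. *Tmpo*, a lamina-associated protein, was at 198, 22.5, and 57.2 CPM, and *Cdc25b*, a phosphatase that drives entry into mitosis, at 21.3, 6.16, and 28.3 CPM. Among the genes above both, *St3gal5*, the sialyltransferase that makes the ganglioside GM3, was at 124, 301, and 111 CPM, *Trp53inp2*, an autophagy gene, at 29.9, 86.3, and 41.0 CPM, and *Apoe*, apolipoprotein E, at 2.80, 11.6, and 2.41 CPM. The 92 *Apoe* UMIs lay in 2.01% of the immature cells. *Tmpo*, *Cdc25b*, *St3gal5*, *Trp53inp2*, and *Apoe* were named after their values were seen.

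Gene lists were counted in the same way, beside the shares over all genes given above. With the genes of the rule left out of the totals, 8.06% of all genes were above and 20.3% below cycling cells. Against mature cells 11.8% were then above and 6.26% below, and recounts of lists with those totals stand beside these shares. Of the gelatinase granule genes, 6 of 8 were at least 2-fold above cycling cells (median log2 ratio 1.69) and 3 of 8 at least 2-fold below mature cells (median −0.55). Of the 20 specific granule genes, 4 were above cycling cells and none below, and 6 were above and 2 below mature cells (medians 0.36 and 0.63). *Camp*, *Ngp*, and *Ltf*, which chose the cells, are 3 of those 6. Without the 4 rule genes, 4 of 16 were above cycling cells, and 3 of 16 were above and 2 below mature cells. *Olfm4*, olfactomedin 4 of a subset of neutrophils, was at 29.6, 79.2, and 53.1 CPM in cycling, immature, and mature cells, with UMIs in 7.18% of the immature cells, and *Cd177*, a surface protein of specific granules, at 812, 1031, and 979 CPM. In the azurophil granule list, *Lyz2*, lysozyme, was at 9440, 14411, and 7609 CPM in the same order. In that list 6 of 15 genes were below cycling cells, and against mature cells 3 of 11 were above (5 with the genes of the rule left out of the totals) and 3 below. Without *Elane*, *Mpo*, *Prtn3*, and *Ctsg*, which the rule kept low, 2 of 11 were below cycling cells, and 2 of 10 were above and 3 below mature cells.

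Genes of the list with which the study scored neutrophil maturation, taken from earlier work, were at least 2-fold above cycling cells in 29 of 44 comparisons and below in 1, and at least 2-fold below mature cells in 45 of 49 (medians 1.40 and −1.63). It holds *Cxcr2*, which the rule used, and without it, a count added after the values were seen, the numbers were 28 of 43 above and 1 below cycling cells and 44 of 48 below mature cells. Receptors of mature neutrophils were above cycling cells in 12 of 32 genes and below in none, and below mature cells in 15 of 35. *Csf3r*, the receptor for the granulocyte growth factor G-CSF, was at 47.4, 94.1, and 396 CPM in cycling, immature, and mature cells. *Fpr2*, another formyl peptide receptor, was at 86.0, 321, and 382 CPM. Among genes of retention and egress, *Cxcr4*, the receptor that holds neutrophils in the marrow, was at 58.9, 71.4, and 91.9 CPM, and *Itga4*, an integrin subunit, at 28.2, 24.4, and 35.0 CPM, and neither passed 2-fold on either side. *Selplg*, the P-selectin ligand, was at 46.2, 109, and 422 CPM, with a log2 ratio to mature cells of −1.95. In the whole list, 3 of 21 genes were above and 1 below cycling cells, and 1 was above and 6 below mature cells, *Cxcr2* of the rule included. With the genes of the rule left out of the totals, 8 of 21 were above cycling cells, where 8.06% of all genes were.

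Of the granulopoiesis transcription factors, 7 of 25 were above and 3 below cycling cells, and 2 of 24 were above and 7 below mature cells. *Cebpe* was at 715, 397, and 93.8 CPM in cycling, immature, and mature cells, with a median of 3.42 UMIs per 10000 over the immature cells (0 to 16.2, at 0 in 22 cells). *Gfi1*, a repressor that granulocyte progenitors need, had 267 UMIs in cycling, 43 in immature, and 7 in mature cells. *Cebpa*, the C/EBP factor of early myeloid commitment, was at 40.6 CPM in azurophil-high cells and at 4.58, 5.28, and 7.41 CPM in the next 3 classes. *Junb*, an AP-1 subunit, was at 16.03, 41.8, and 196 CPM, and *Rara*, a retinoic acid receptor, at 3.31, 20.2, and 83.4 CPM.

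Of the 9 NADPH oxidase genes, which make superoxide, 1 was above cycling cells and 2 were above mature cells. The list's median log2 ratio to cycling cells was −0.02 and turned to 0.21 with the genes of the rule left out of the totals. *Cybb*, the membrane subunit of the oxidase, was at 1628, 2064, and 951 CPM in cycling, immature, and mature cells. *Hvcn1*, the proton channel that sustains the oxidase, was at 71.8, 51.4, and 10.2 CPM. Its log2 ratio to mature cells was 2.34, and 1.62 with the border at *Cxcr2* below 2.5 per 10000. *Lta4h*, the last enzyme of leukotriene B4 synthesis, was at 375, 358, and 80.8 CPM.

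Interferon-stimulated genes were at least 2-fold above cycling cells in 5 of 13 (8 with the genes of the rule left out of the totals) and below in 1, and at least 2-fold below mature cells in 15 of 19 (medians 0.96 and −1.48). *Isg15*, a ubiquitin-like protein, was at 2.88, 16.7, and 53.9 CPM in cycling, immature, and mature cells, and *Oas3*, a sensor of viral RNA, at 4.92, 26.9, and 97.6 CPM. In the *Ifitm* family, *Ifitm1* was at 11.96, 70.1, and 1020.2 CPM (log2 ratio to cycling cells 2.55, and 4.39 with the cells of highest doublet score left out), while *Ifitm6* was at 1484, 5420, and 4486 CPM. Of the cytokine and chemokine genes, 5 of 11 were above and 3 below cycling cells, 8 of 12 were below mature cells (5 with the genes of the rule left out of the totals) and none above, and 9 of the 26 found in the files had no UMI in the immature cells. Of the survival and apoptosis genes, 3 of 18 were above and 3 below cycling cells, and 1 of 17 was above and 5 below mature cells, beside 5.33% and 25.2%, and 6.78% and 9.23%, of all genes. *Mcl1*, a survival factor of neutrophils, was at 113, 239, and 649 CPM, and *Bax*, a death effector, at 27.6, 11.3, and 4.83 CPM.

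The 86 ribosomal protein genes summed to 253237 CPM in azurophil-high, 84349 in cycling, 45525 in immature, and 28484 CPM in mature cells. Of 83 compared, 30 were at least 2-fold below cycling cells and none above, and 26 were above and 1 below mature cells (medians −0.93 and 0.83). The share below cycling cells, 30 of 83, stood beside 25.2% of all genes. With the genes of the rule left out of the totals, 15 of 83 were below cycling cells, where 20.3% of all genes were, so no more is read from that side. Against mature cells, 49 were then above, where 11.8% of all genes were. *Rpl3*, of the large subunit, was at 578, 152, and 32.6 CPM in cycling, immature, and mature cells, whereas *Rps9*, of the small subunit, was at 1912, 1821, and 1826 CPM. The step was thus unequal among genes of the same complex. Of the secretory pathway genes, 7 of 35 were below cycling cells, a share under that of all genes, and 14 of 33 were above mature cells with none below. *Hsp90b1*, a chaperone of the endoplasmic reticulum, was at 168, 124, and 26.5 CPM. Of nuclear-encoded respiratory chain genes, 14 of 80 were below cycling cells, again under the share of all genes, and 12 of 79 were above mature cells (9 and 23 with the genes of the rule left out of the totals). Of the glycolysis genes, 1 of 19 was above and 1 below cycling cells and 2 of 19 were below mature cells, of which the higher share against cycling cells and the lower share against mature cells were near those of all genes. Their median log2 ratio to mature cells was −0.06 and turned to 0.20 without the genes of the rule in the totals. Of the 13 mitochondrially encoded genes, 5 were below cycling cells and none passed 2-fold against mature cells. Of the stefins and antiproteases, 7 of 15 were above and 1 below cycling cells, and 1 of 13 was above and 8 below mature cells.

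**Figure D4:**
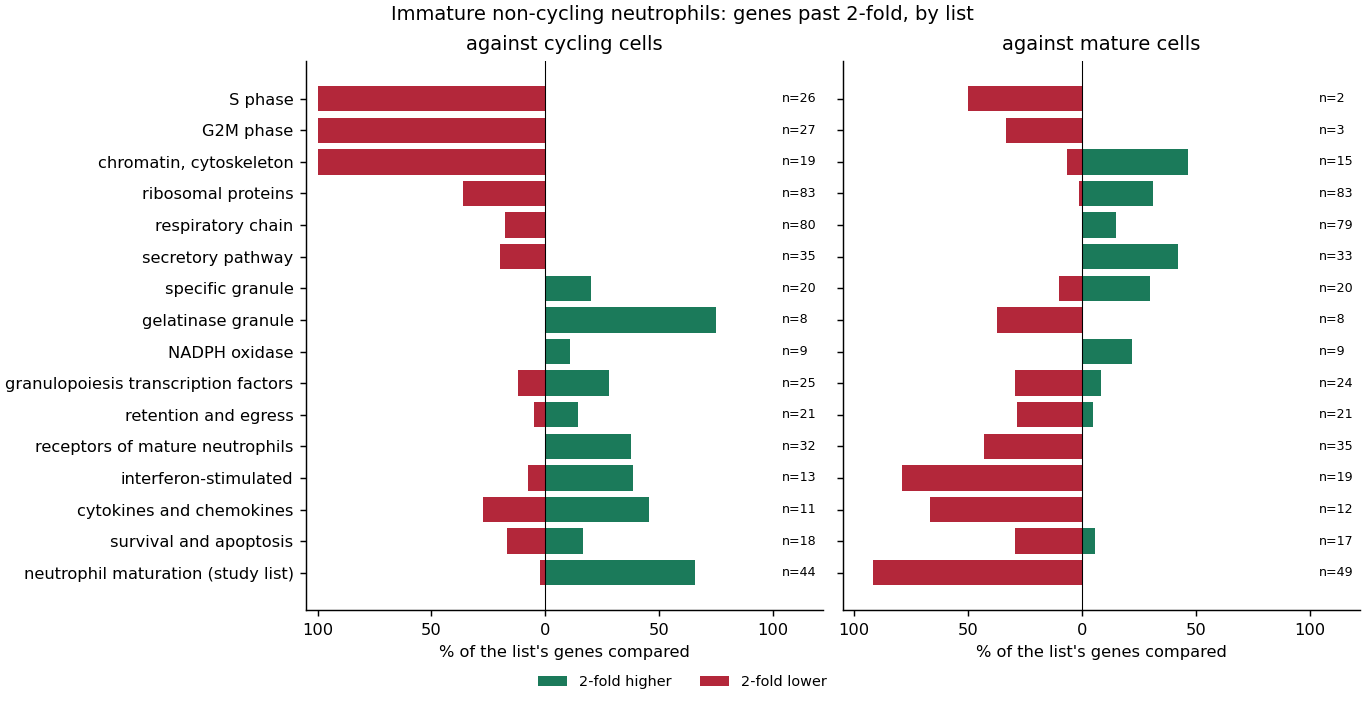
Bars give the percent of a list's compared genes that were at least 2-fold higher (right, green) or lower (left, red) in the immature cells than in cycling cells (left panel) or mature cells (right panel), with the number of genes compared as n. Lists of the cell cycle are lower throughout against cycling cells, 14 of 33 secretory genes are higher against mature cells, and maturation and receptor genes past 2-fold lie on the lower side there. Over all genes, 5.33% were higher and 25.2% lower against cycling cells, and 6.78% and 9.23% against mature cells, and the secretory list (7 of 35 lower against cycling cells) is under that share.

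The immature cells were not uniform. With each cell thinned to 2000 UMIs, 29 of 1412 genes with a mean of at least 0.1 UMI, other than those of the rule, had a variance of more than 2 times the mean over 346 cells, and the median was 1.04. *Retnlg* led, with a ratio of 26.2, and its UMIs were found in 80.1% of the thinned cells. *S100a6*, a calcium-binding protein, had a ratio of 12.5 and *Gm42418*, a locus that overlaps ribosomal RNA, one of 16.7. *Hist1h2ap*, a histone gene, had a ratio of 8.27, with 70.3% of its UMIs in 10 cells. The other 6 of the 10 were stefin genes, *BC100530*, *Gm5483*, *Stfa1*, *Stfa2*, *Stfa2l1*, and *Stfa3*, which are near-identical inhibitors of cysteine proteases, so that reads may be split between them. Unthinned, their sum was 5223 UMIs, of which 66.1% lay in 10 of the 348 cells. Those 10 cells held 141 stefin UMIs per 10000, the other cells 2.29, and mature cells 32.4.

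Ordered by their share of the 4 granule genes and divided into 5 bins of 69 or 70 cells, the cells with the lowest share (median 7.28%) differed from those with the highest (12.9%) in genes the choice did not use. *Retnlg* was at 14735 CPM in the lowest and 1734 CPM in the highest bin. *Wfdc17*, a secreted antiprotease, was at 291 and 6.72 CPM, *Ifitm1* at 292 and 5.60 CPM, *Srgn*, serglycin, the proteoglycan of granules, at 192 and 17.3 CPM, and *Prok2* at 98.3 and 9.51 CPM. In the other direction, *Fcnb* was at 39.2 and 500 CPM, *Orm1* at 39.9 and 241 CPM, *Vimp* at 23.5 and 96.8 CPM, and *Chil3* at 2169 and 5654 CPM. *Ffar2*, a receptor for short-chain fatty acids, was at 21.4 and 72.7 CPM. The genes with the largest ratios toward the low end also included 5 of the stefins, and those toward the high end *Ica1*, *Pde4d*, *Zmpste24*, *Tmem216*, and *Tex15*. Every gene is a share of the same total, so a lower granule share leaves more room for other genes in the lowest bin.

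The cells were then ordered by genes chosen after their values were seen, which were *Retnlg*, *Fcnb*, *Orm1*, and *Chil3* from the ends of these bins and *Mmp8* and *Mmp9* from the comparison with cycling cells. For each cell the UMIs of *Retnlg*, *Mmp8*, and *Mmp9* were set against those of *Fcnb*, *Orm1*, and *Chil3* as a log2 ratio with 1 UMI added to each sum, and bins were taken from the *Fcnb* end to the *Mmp8* end. Median depth was 25393 UMIs in the first bin and 19802.5 in the last, and median *Cxcr2* was 1.19 and 3.63 per 10000. *Camp* was at 46686, 41670, 39533, 33554, and 22914 CPM over the bins and *Ngp* at 42440, 38527, 37939, 35527, and 28289 CPM. *Ltf* was at 10805, 10765, 11732, 12501, and 9741 CPM. Since 4 of the 6 ordering genes came from bins by the share of these rule genes, the values of *Camp*, *Ngp*, and *Ltf* along the order are not independent of it and are no finding. *Cebpe* was at 576, 482, 396, 279, and 194 CPM. *Ly6g* was at 643, 837, 1297, 1242, and 1155 CPM, so its lowest values were in the first 2 bins.

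*Ptma* was at 302, 211, 54.6, 39.7, and 7.19 CPM and *Hmgn2*, a nucleosome-binding protein, at 1421, 1114, 754, 636, and 527 CPM. *S100a6* was at 2222 and 8846 CPM in the first and last bin, *Slpi*, a protease inhibitor, at 273 and 1456 CPM, and *Fpr1* at 10.99 and 151 CPM. *Cebpb* was at 58.4, 87.4, 63.8, 108, and 152 CPM, below its levels in both neighboring classes in each bin. Ribosomal protein genes summed to 61225 CPM in the first and 33194 CPM in the last bin, and secretory genes to 3261 and 1658 CPM. NADPH oxidase genes were at 6982 and 6725 CPM, and the S100 list at 414112 and 423834 CPM. Most of the S100 list is *S100a8* and *S100a9* of the rule, at 202915 and 206810 CPM in the first bin. Its level therefore describes the choice and is no finding. Interferon-stimulated genes were at 286, 281, 245, 395, and 574 CPM. Cells with a *Mki67* or *Top2a* UMI numbered 20 in the first bin and 6 in the last. Both are genes of the rule, and median depth was 25393 UMIs in the first bin against 19802.5 in the last. These counts are therefore no finding.

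Correlations across the 348 cells are given for the ordering genes, whose signs follow from their choice as ends, and for *Camp*, *Ngp*, and *Ltf*, whose summed share was a criterion of the rule. The cells share a library, and values are per UMI. Spearman's rho was 0.80 for *Mmp8* with *Mmp9*, 0.78 for *Mmp8* with *Retnlg*, and 0.55 for *Chil3* with *Fcnb*. Between the ends it was −0.63 for *Mmp8* with *Fcnb* and −0.67 for *Mmp8* with *Chil3*. *Ltf* had a rho of 0.39 with *Ngp*, 0.07 with *Camp*, and 0.08 with *Mmp8*, while *Camp* and *Ngp* had one of 0.40. With cells thinned to 5000 UMIs, which left 343, the rho of *Mmp8* with *Fcnb* was −0.52 and that of *Mmp8* with *Mmp9* 0.72. A UMI of both *Mmp8* and *Fcnb* was found in 105 cells, of *Mmp8* alone in 148, of *Fcnb* alone in 81, and of neither in 14.

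**Figure D5:**
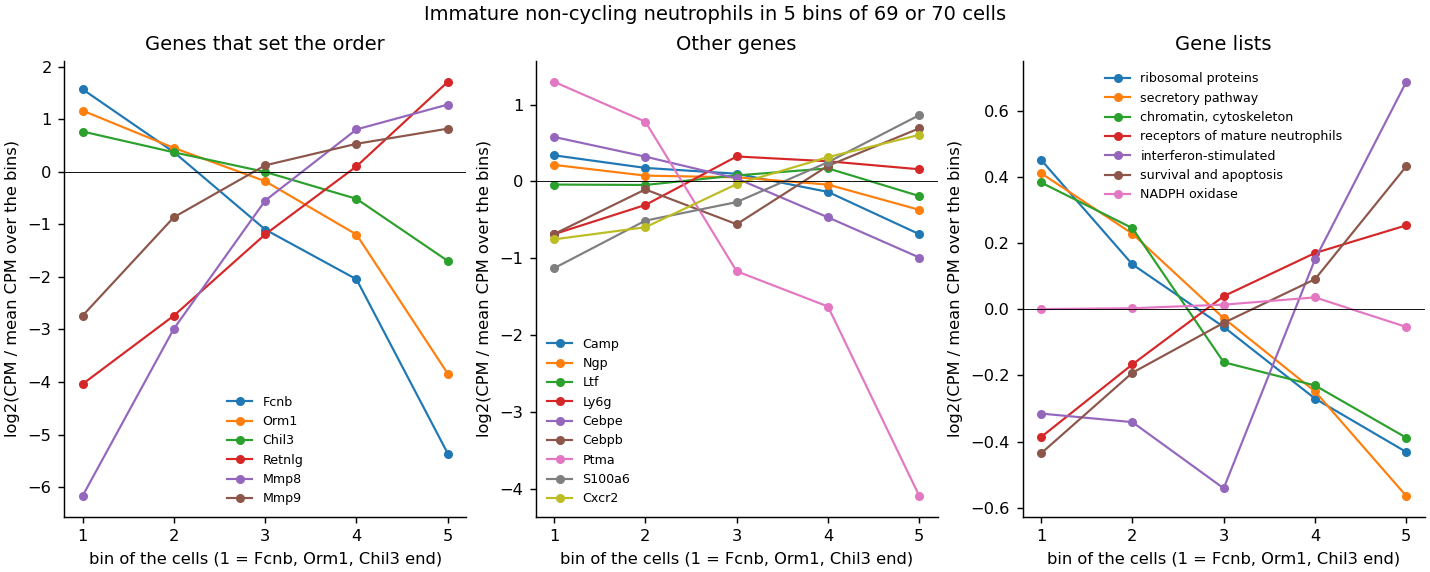
The 5 bins of the 348 immature cells (x axis, 69 or 70 cells each) ordered from the *Fcnb*, *Orm1*, and *Chil3* end to the *Mmp8*, *Mmp9*, and *Retnlg* end, with the log2 of each CPM over its mean across the bins (y axis). The left panel shows the 6 genes that set the order, the others show other genes and summed lists. The NADPH oxidase list stays near 0, while *Cebpe* and ribosomal protein genes are lower from bin to bin. Genes of the rule such as *Ltf* are not independent of the order and are no finding.

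Shares of cells with a UMI depend on depth, and free RNA gives UMIs to cells that do not express a gene. At 2000 UMIs per cell, *Mmp8* was found in 55.2% of the immature, 5.94% of the cycling, and 96.2% of the mature cells. It was found in 0 of 61 B-type cells of the same library, which were under the S100 threshold and held at least 3 *Cd79a* and *Cd79b* UMIs. That 0 allows up to 4.92% with a floor of 3 counts, and its Clopper-Pearson upper limit is 5.87%. *Fcnb* was found in 23.4%, 75.6%, and 1.28%, and in 0 of the B-type cells. *Camp* was found in 100% of the immature and in 14.8% of the B-type cells, and *Retnlg* in 80.1% and 11.5%. Without thinning, *Mmp8* was in 72.7% of the immature and 4.92% of the B-type cells, and *Camp* in 44.3% of the latter, at median depths of 22659 and 5683 UMIs. *Ly6g* was found in 74.6% of thinned immature, 32.5% of thinned cycling, and 77.7% of thinned mature cells.

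Outside the marrow, cells that met the same rule were few. There were 11 among 2184 filtered blood cells (0.504%, 0.252% to 0.899%) and 7 among 4978 tendon cells (0.141%, 0.0566% to 0.290%). At fewer than 50 cells each they were not compared with the marrow cells, and their values are set beside them. *Camp* was at 25143 CPM in the blood and 28490 CPM in the tendon cells, against 37508 CPM in the marrow, and *Retnlg* at 14251 and 25739 against 5208 CPM. *Il1b* was at 214 and 1689 CPM and *Irg1* at 9.74 and 495 CPM, against 0.377 and 0.880 CPM in the marrow cells. Markers of other cells are given for blood, tendon, and marrow cells in turn. Dendritic markers were at 487, 29.1, and 5.65 CPM, B-cell markers at 34.1, 0, and 1.88 CPM, and megakaryocyte markers at 0, 58.2, and 3.90 CPM. The 11 blood cells held 205385 UMIs in all and the 7 tendon cells 68691, so low values and 0 there rest on few UMIs. The B-cell value in blood was 0.636 UMIs per cell, and the megakaryocyte value in tendon 0.571. The median depths were 19671, 7638, and 22659 UMIs.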

How the data were processed

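The authors deposited counts of UMIs per gene and cell, not normalized, from 3' libraries (10x Genomics). The file headers name Cell Ranger 5.0.1, and mm10 is the build in the submitters' processing notes. The bone marrow cells of the set and the gene lists were chosen with earlier results of these data known. UMIs were summed over the cells of a class and scaled to 1000000 UMIs (CPM). Genes with at least 100 UMIs over both classes were compared, and those at least 2-fold apart with a 95% interval off 0 were counted. Levels have exact Poisson intervals, shares Clopper-Pearson intervals, and ratios intervals from the exact binomial split of UMIs. Named genes were the rule and marker genes, the 10 largest ratios each way (detected in at least 10% of the cells of the class where they were higher), per list up to 4 most abundant and up to 4 of largest ratio, a fixed set of further genes such as *Cebpe* and *Cxcr4*, the 10 most variable genes, and the 10 at each end of the granule bins. No doublets were removed in the main analysis. Alternatives changed the filter on cells, doublets (Scrublet, scanpy 1.11.5), the thresholds, the scaling, the filter on low genes, the fold, and the thinning. Shares were compared in cells thinned to 2000 UMIs. Ratios were checked on simulated Poisson counts with known changes. These counts have no spread between cells, so the check does not cover genes whose UMIs lie in few cells. Versions were Python 3.11.15, scipy 1.17.1, numpy 2.4.6, pandas 2.3.3, and matplotlib 3.10.9.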

Additional observations from a re-analysis of the deposited data

How the results depend on the processing

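Without *Mki67* or *Top2a* UMIs the set was 15.5% of the library (285 cells), and with *Cxcr2* below 2.5 per 10000 it was 10.98% (202 cells), the cells left out by the latter joining the mature class. That *Cxcr2* threshold gave 221 genes above cycling cells and 231 above mature cells. Totals without the genes of the rule gave 548 and 614, and the same totals centred on the median, an alternative chosen after seeing the data, gave 682 above cycling cells. At least 20 UMIs in place of 100 gave 617 above and 2584 below cycling cells and 879 above mature cells. No filter on low genes gave 696 above and 2782 below cycling cells, and 1020 above and 839 below mature cells. A 1.5-fold limit gave 819 above and 2620 below cycling cells, and 820 above and 1023 below mature cells. The share of higher genes among those past 2-fold against mature cells was 55.4% at 20 UMIs, 54.9% with no filter, and 32.5% with the lower *Cxcr2* threshold, against 42.4%. The centred totals gave 412 higher and 432 lower genes against mature cells. Leaving out the cells of highest doublet score moved the log2 ratio to cycling cells of *Ifitm1* from 2.55 to 4.39, of *Gm5483* from 2.96 to 4.61, and of *Slc15a3* from 4.45 to 5.77. The *Cxcr2* threshold moved the log2 ratio to mature cells of *Fcnb* from 4.34 to 2.91 and of *Akap11* from 4.04 to 1.60. With totals without the genes of the rule, 8 of 13 in place of 5 interferon-stimulated genes were above cycling cells, 9 of 80 in place of 14 respiratory chain genes were below cycling cells, 23 of 79 in place of 12 were above mature cells, and 5 of 12 in place of 8 cytokine and chemokine genes were below mature cells. With these totals 8.06% of all genes were above and 20.3% below cycling cells, and 11.8% were above and 6.26% below mature cells. The causes were not tested. Of 6019 alternative ratios of named genes, 4951 stayed within the counting interval, 1068 moved beyond it, and 0 of those past 2-fold changed sign. The ratio furthest from the one reported was over 1.5 times away for 84 of 606 results, and for 59 of these it came from the lower *Cxcr2* threshold. At 1000 and 5000 UMIs the median number of genes was 326 and 1091 in immature, 395 and 1298.5 in cycling, and 349 and 1140.5 in mature cells. The comparison of marrow cells with blood cells that meet the same rule was not run, since 11 such blood cells are fewer than 50. No paired analysis was possible because each site had 1 library and no result came from a test. With 1 library per site, no spread between animals or libraries could be estimated.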
